A study of Mus musculus with 18 samples.

Results

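Interferon-stimulated genes outside the Ifit family were followed by PPARg genotype in 2 kinds of mouse macrophage sample. The group is a fixed list of 38 genes, taken by symbol from the count tables, out of 26149 genes found in both tables. All 38 were present in both tables and all 38 passed the filter on low counts in both. The rule that picks them uses names and not measured values, and the list was drawn up with earlier results of these data known.

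Type I interferons bind the receptor made of Ifnar1 and Ifnar2, whose kinases Jak1 and Tyk2 phosphorylate Stat2. Stat2 acts with Irf9 in the complex ISGF3, which enters the nucleus and binds the interferon-stimulated response element in the promoters of its target genes. The products of those genes sense foreign RNA and DNA, cut or edit RNA, block translation, trap virus particles or feed back on the pathway, and macrophages keep many of them at a low level without infection.

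RNA sequencing covered 18 libraries from wild-type (WT) mice and from mice with the T166A mutant of PPARg, a nuclear receptor that governs lipid handling and alternative activation in macrophages. Bone marrow-derived macrophages (BMDM) were grown for 7 days with 50 ng/ml of the growth factor M-CSF (n = 3 per genotype). The second source was the cell fraction of wounded dorsal skin held by anti-F4/80 magnetic beads at day 6 after injury (n = 6 per genotype). The labels name C57BL/6J as the WT strain of the BMDM, and give neither the background of the mutant line, littermate status, age nor sex. No interferon, infection or other stimulus is named for the cultured cells. The labels give a batch for BMDM only: replicates 1 and 2 of each genotype are in batch B1 and replicate 3 of each is in batch B2. Nothing in the labels says that replicates came from separate animals or cultures, so the p-values measure the spread between these libraries, which may be partly technical.

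Depth was 40072513 to 44152639 gene counts per library in BMDM and 29357354 to 38774475 in skin. Levels are given as CPM, gene counts scaled to a common library size by TMM within each table, and RPKM is that value per kilobase of transcript. Counts per transcript cannot show the T166A substitution, so they give no check of the genotype labels. Markers of macrophages were high in every library, with Adgre1, the gene of F4/80, at 1436 to 1915 CPM in BMDM and 630 to 984 CPM in skin. The skin fraction also carried RNA of other cells: 7 fibroblast markers summed to 6260 to 11452 CPM there, against 9223 to 13608 CPM for 10 macrophage markers. In such bulk samples, fewer cells of a type and less RNA per cell cannot be told apart. One library stood apart for these genes: skin WT replicate 2 held the lowest value of all 12 skin libraries in 34 of 38 genes.

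Sequences before the gene start are shown because ISGF3 recognises repeated GAAA blocks there. The motif searched was GAAANNGAAA on either strand, with overlapping matches allowed, from 250 bases before to 50 bases after each start in RefSeq's promoter table (GRCm38.p6). The table held 28 of the 38 genes, and 12 of these 28 (42.9%) had a match, against 1079 of 27025 genes in the whole table (3.99%) and 421 of 10403 genes that were tested in BMDM (4.05%). Counted by promoter, 14 of 36 promoters of the list (38.9%) and 1131 of 32851 in the table (3.44%) held it. Below are the 250 bases before the start of 4 genes with a match and of Ifi44. Ifi44 was the gene with the largest BMDM log2 difference, and these letters were not in its window. Each reads 5′ to 3′ on the gene's strand, and capitals mark the matches. The positions are chr4:156200819-156201068, minus strand, for Isg15, chr12:26456453-26456702, minus strand, for Rsad2, chr11:83020811-83021060, minus strand, for Slfn8, chr10:128270248-128270497, plus strand, for Stat2, and chr3:151749911-151750160, minus strand, for Ifi44.
Isg15: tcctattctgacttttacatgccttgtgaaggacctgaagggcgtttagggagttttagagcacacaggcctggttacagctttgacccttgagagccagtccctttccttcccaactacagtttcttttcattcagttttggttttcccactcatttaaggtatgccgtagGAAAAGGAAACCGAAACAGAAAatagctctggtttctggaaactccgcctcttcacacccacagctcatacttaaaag
Rsad2: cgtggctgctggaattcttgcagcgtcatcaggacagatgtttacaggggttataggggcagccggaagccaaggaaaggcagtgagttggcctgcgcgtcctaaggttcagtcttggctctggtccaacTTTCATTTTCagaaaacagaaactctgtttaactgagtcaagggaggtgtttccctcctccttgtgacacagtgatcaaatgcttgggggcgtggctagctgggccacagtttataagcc
Slfn8: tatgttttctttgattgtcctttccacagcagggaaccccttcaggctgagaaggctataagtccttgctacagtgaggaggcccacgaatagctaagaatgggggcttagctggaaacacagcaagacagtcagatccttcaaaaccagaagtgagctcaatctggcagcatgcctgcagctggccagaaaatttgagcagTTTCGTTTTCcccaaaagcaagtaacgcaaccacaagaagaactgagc
Stat2: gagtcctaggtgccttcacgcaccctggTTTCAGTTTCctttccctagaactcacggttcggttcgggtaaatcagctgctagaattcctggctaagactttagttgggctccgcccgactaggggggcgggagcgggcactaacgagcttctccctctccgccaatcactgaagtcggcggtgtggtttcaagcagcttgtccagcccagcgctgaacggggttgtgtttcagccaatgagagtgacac
Ifi44: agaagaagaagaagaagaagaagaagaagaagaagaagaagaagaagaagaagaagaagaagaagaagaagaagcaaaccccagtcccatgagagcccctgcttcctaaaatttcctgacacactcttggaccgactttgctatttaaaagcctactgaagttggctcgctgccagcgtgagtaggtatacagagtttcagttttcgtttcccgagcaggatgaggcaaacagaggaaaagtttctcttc

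In the Isg15 promoter 3 overlapping matches formed a single run that ended 56 bases before the start. The match lay 110 bases before the start of Rsad2, 38 before the start of Slfn8 shown and 212 before that of Stat2. A match is a description of the letters and was not tested as a binding site. The 12 genes with a match had a median BMDM log2 difference of 0.81, in a range of 0.37 to 1.06. The 16 with a promoter in the table and no match had a median of 0.60, in a range of 0.24 to 1.35. The ranges overlapped, and no test of this difference was made. The motif has a fixed spacing, and the Ifi44 sequence shown holds GAAA blocks at other spacings on the opposite strand.

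In BMDM every one of the 38 genes had a higher fitted level in T166A than in WT, but none passed the adjusted threshold of edgeR's quasi-likelihood test. The log2 fold change of T166A over WT ran from 0.19 for Ifi27l2a to 1.35 for Ifi44, with a median of 0.61. Among all 13139 genes tested, 47.1% had a positive log2 fold change and the median was -0.02. In 21 of the 38 genes all 3 T166A libraries lay above all 3 WT libraries, a pattern that 6.67% of all genes showed. The adjusted p-values in edgeR ran from 0.107 for Zbp1 and Slfn5 to 0.529 for Mx2. At an unadjusted p under 0.05 edgeR put 31 of the 38 higher in T166A, against 6.51% of all genes. The median of the 38 above the WT mean was 0.88, 0.66 and 0.49 on the log2 scale in T166A replicates 1, 2 and 3, and 38, 38 and 33 genes lay above it. By role, the median log2 fold change was 0.81 for sensors, 0.78 for effectors, 0.70 for the Oas family, 0.67 for signalling factors, 0.60 for RNA enzymes, 0.56 for both the Isg15 system and the ubiquitin ligases, 0.48 for PARPs and 0.43 for the remaining genes.

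Few genes passed the adjusted test in BMDM at all, 0.0609% higher and 0.00761% lower in T166A. The count of calls among the 38 depended on the tool. DESeq2 called 22 higher (1.89% of all genes), limma-voom with quality weights called 16 (1.13%), and edgeR without a filter on low counts called 8 (0.466%). None of these called any of the 38 lower. Cmpk2, Eif2ak2, Ifih1, Isg15, Slfn5, Slfn8, Sp100 and Zbp1 were called by all 3 of these alternatives.

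**Figure D1:**
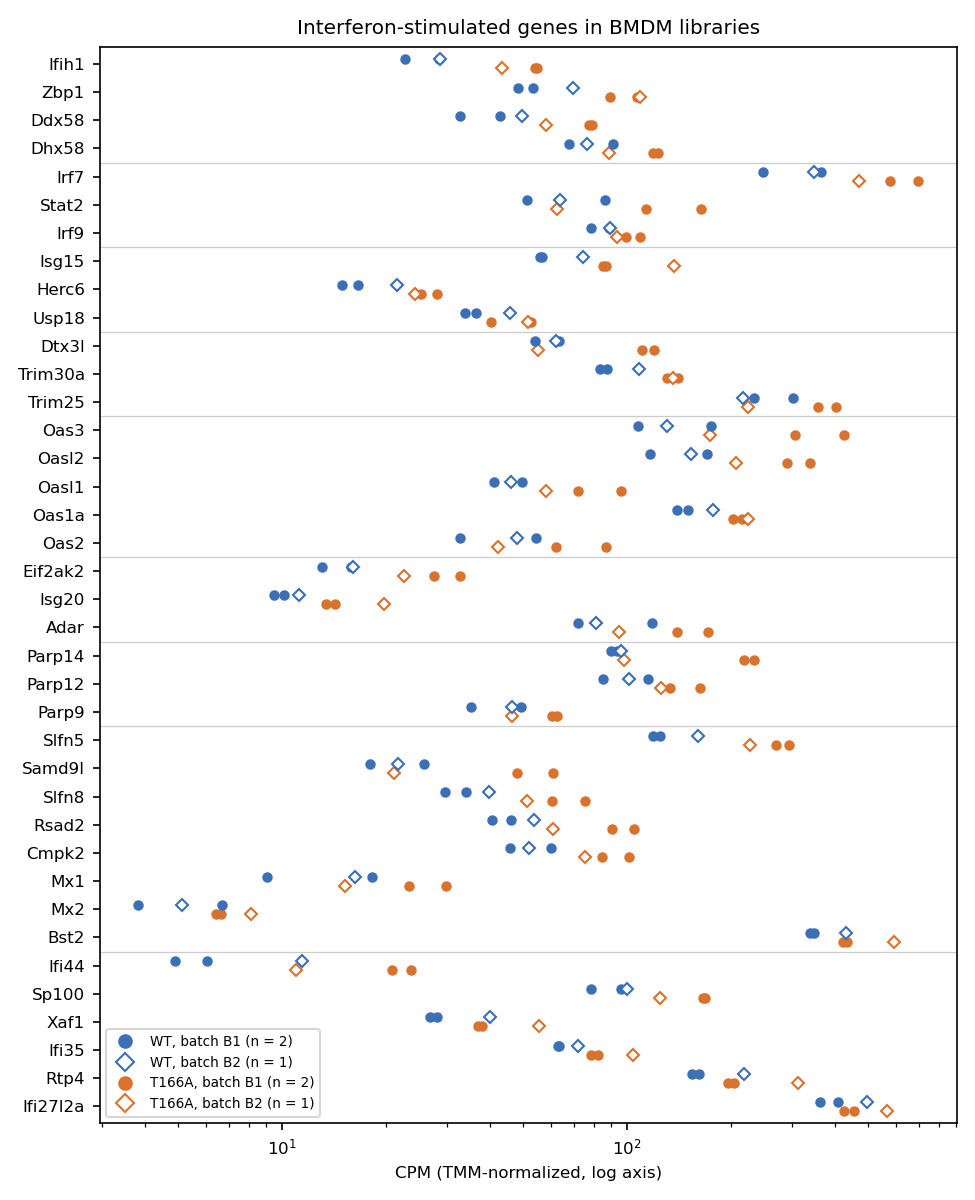
CPM of the 38 genes (log axis) in the 6 BMDM libraries, grouped by role, with WT in blue, T166A in orange, batch B1 as filled circles and batch B2 as open diamonds. The T166A points lie to the right of all WT points in 21 of 38 genes. The B2 T166A point lies among the WT points for Ifi44, Samd9l, Mx1, Oas2, Dtx3l, Stat2, Oas3, Dhx58, Adar, Trim25 and Parp9.

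The sensors recognise viral nucleic acid: Ifih1 (MDA5) and Ddx58 (RIG-I) bind double-stranded RNA, Dhx58 (LGP2) tunes both, and Zbp1 binds Z-form nucleic acid and can start necroptosis. Zbp1 (chr2:173206612-173218959) was at 53.3, 48.1 and 69.4 CPM in the WT libraries and 107, 89.2 and 109 CPM in the T166A libraries. The groups did not overlap, and the log2 fold change was 0.85 (SE 0.14), with an adjusted p of 0.107 in edgeR. Ifih1 was at 22.7, 28.5 and 28.7 CPM in the WT libraries and 54.8, 53.9 and 43.3 CPM in the T166A libraries, again without overlap, and its log2 fold change was 0.92 (SE 0.16). Ddx58 gave 42.8, 32.8 and 49.5 CPM in the WT libraries and 77.5, 78.9 and 58.3 CPM in the T166A libraries. Here replicate 3 of T166A was the lowest of its group and still above the highest WT library. Dhx58 was at 90.9, 67.9 and 76.5 CPM in the WT libraries and 123, 119 and 88.4 CPM in the T166A libraries, so T166A replicate 3 fell among the WT values.

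The signalling factors are parts of the pathway that interferon itself induces. Irf7, which drives interferon-alpha transcription, was at 364, 248 and 347 CPM in the WT libraries and 696, 576 and 469 CPM in the T166A libraries. All 3 T166A values were above all WT values, and the log2 fold change was 0.85 (SE 0.19). Stat2, a subunit of ISGF3, was at 86.1, 51.1 and 63.8 CPM in the WT libraries and 164, 113 and 62.6 CPM in the T166A libraries, and the T166A library of batch B2 lay inside the WT range. For Irf9, the DNA-binding subunit, the groups did not overlap but the log2 fold change was only 0.24 (SE 0.13), from 85.3 ± 5.72 CPM in WT and 100.5 ± 7.61 CPM in T166A (mean ± SD, n = 3).

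Isg15, a ubiquitin-like protein that is joined to other proteins, was at 56.6, 55.8 and 74.5 CPM in the WT libraries and 87.1, 85.1 and 136 CPM in the T166A libraries. Its T166A library of batch B2 was the highest of all 6, and the log2 fold change was 0.70 (SE 0.12), with an adjusted p of 0.1249 in edgeR. Usp18, which removes Isg15 and damps the receptor, had 38.7 ± 6.20 CPM in WT and 48.2 ± 6.79 CPM in T166A and overlapping groups. Herc6, the ligase that attaches Isg15 in mice, had 17.7 ± 3.40 CPM in WT and 25.8 ± 1.95 CPM in T166A, and every T166A library was above every WT library.

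Among ubiquitin ligases and their partners, Trim25, the ligase that activates RIG-I, was at 302, 233 and 216 CPM in the WT libraries and 403, 356 and 224 CPM in the T166A libraries. Batch B1 T166A libraries were the highest and the B2 pair was nearly level. Trim30a, a restraint on Toll-like receptor signalling, was at 83.2, 87.2 and 108 CPM in the WT libraries and 130.3, 140.2 and 136 CPM in the T166A libraries, without overlap, and its log2 fold change was 0.56 (SE 0.13). Dtx3l, which works as a pair with Parp9, was at 63.6, 54.0 and 62.2 CPM in the WT libraries and 119.5, 110.1 and 55.0 CPM in the T166A libraries, with both B1 T166A libraries far above and the B2 library inside the WT range. Trim30a and its near copies can share reads, so its value is uncertain in that respect. Exons of Dtx3l and Parp9 overlap on opposite strands, and whether the counting used strand is not known here. Exons of Irf9 overlap those of Rnf31 on the same strand. Parp14, Herc6, Rtp4 and Sp100 also share exon positions with other annotated genes on the same strand. How reads in such overlaps were counted is not known here.

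The 2′-5′-oligoadenylate synthetases make the messenger that activates RNase L. Oas3 was at 175, 107 and 130.4 CPM in the WT libraries and 426, 307 and 174 CPM in the T166A libraries. Its log2 fold change of 1.06 (SE 0.26) was the second largest of the 38, and T166A replicate 3 was just below WT replicate 1. Oasl2, a relative with ubiquitin-like domains, was at 169.9, 116 and 153 CPM in the WT libraries and 339, 291 and 206 CPM in the T166A libraries, with no overlap and a log2 fold change of 0.91 (SE 0.20). Oasl1 (0.70, SE 0.18) and Oas1a (0.46, SE 0.12) had groups that did not overlap, while Oas2 (0.46, SE 0.26) had groups that did. Oas1a belongs to a family of close copies, among which reads may be split.

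Eif2ak2 (PKR), the kinase that stops translation when it binds double-stranded RNA, was low at 13.02, 15.8 and 16.1 CPM in the WT libraries and 27.6, 32.9 and 22.5 CPM in the T166A libraries, without overlap, and its log2 fold change was 0.88 (SE 0.18). Isg20, an RNA exonuclease, had 10.3 ± 0.876 CPM in WT and 15.8 ± 3.46 CPM in T166A without overlap. Adar, which edits adenosine in double-stranded RNA, was at 118, 71.7 and 81.1 CPM in the WT libraries and 171, 139 and 94.4 CPM in the T166A libraries, and its groups overlapped.

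The PARP proteins transfer ADP-ribose to other proteins. Parp14 was at 93.2, 89.6 and 95.7 CPM in the WT libraries and 232, 219 and 97.6 CPM in the T166A libraries. The 3 WT libraries were close together, both B1 T166A libraries were far above them, and the B2 T166A library was only just above the WT range. Parp12 had 100.3 ± 15.2 CPM in WT and 140.2 ± 19.9 CPM in T166A without overlap, and Parp9 had 43.5 ± 7.37 CPM in WT and 56.4 ± 8.75 CPM in T166A with overlap.

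Of the 8 antiviral effectors, Slfn5 (chr11:82951349-82964850), a Schlafen protein of the nucleus, was at 119, 124 and 161 CPM in the WT libraries and 270.1, 295 and 227 CPM in the T166A libraries. No values overlapped, and the log2 fold change was 0.98 (SE 0.16) with an adjusted p of 0.107 in edgeR. Rsad2 (viperin), which makes a chain-terminating nucleotide, was at 46.1, 40.6 and 53.5 CPM in the WT libraries and 105, 90.1 and 60.9 CPM in the T166A libraries, and its neighbour Cmpk2, which supplies that enzyme's substrate, at 60.2, 45.9 and 52.0 CPM in the WT libraries and 101, 84.5 and 75.5 CPM in the T166A libraries. The groups of both were separate. Slfn8 was separate too, at 29.7, 34.0 and 39.8 CPM in the WT libraries and 60.6, 75.5 and 51.3 CPM in the T166A libraries, though it has close copies in a cluster of Schlafen genes. Bst2 (tetherin), which holds budding virus at the cell surface, was at 339, 348 and 431 CPM in the WT libraries and 433, 423 and 593 CPM in the T166A libraries. Replicate 3 was the highest library of each genotype for Bst2, and T166A replicate 2 was just below WT replicate 3, so the groups overlapped. Samd9l, a restrictor of poxviruses, was at 17.9, 25.7 and 21.6 CPM in the WT libraries and 47.9, 61.0 and 21.0 CPM in the T166A libraries, with only the B1 T166A libraries above WT. Mx1 (14.5 ± 4.84 CPM in WT and 22.8 ± 7.31 CPM in T166A) and Mx2 (5.22 ± 1.43 CPM in WT and 7.07 ± 0.933 CPM in T166A), dynamin-like antiviral proteins, had overlapping groups. Both are annotated as transcribed pseudogenes in this reference genome.

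The remaining 6 genes have less settled roles. Ifi44 was at 6.04, 4.88 and 11.4 CPM in the WT libraries and 20.8, 23.5 and 10.9 CPM in the T166A libraries, so its log2 fold change of 1.35 (SE 0.40) came with the largest standard error of the 38 and rested on batch B1. Sp100, a component of nuclear bodies, was at 95.9, 78.6 and 100.03 CPM in the WT libraries and 165.97, 168 and 124 CPM in the T166A libraries, and the groups did not overlap. Ifi35 had 66.0 ± 4.98 CPM in WT and 88.2 ± 13.7 CPM in T166A without overlap. Xaf1 (0.46, SE 0.13) and Rtp4 (0.40, SE 0.12) had overlapping groups. Ifi27l2a was at 407, 361 and 495 CPM in the WT libraries and 425, 455 and 566 CPM in the T166A libraries, with replicate 3 the highest of each genotype, overlapping groups and a log2 fold change of 0.19 (SE 0.12). Per length, Ifi27l2a was the most abundant of the 38 in WT BMDM at 909.8 RPKM, followed by Bst2 at 470.4 and Irf7 at 167 RPKM.

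Most fitted differences between genotypes in BMDM were smaller in batch B2 than in B1, though no gene passed the adjusted test of that change. In B1 all 38 genes had a positive log2 fold change, with a median of 0.79, against 49.3% of all genes. In B2, with 1 library per genotype and no spread of its own, 32 were positive and 6 negative, with a median of 0.32, against 43.6% of all genes positive. A log2 fold change above 1 was seen for 13 genes in B1 and for 0 in B2. Within B1 alone, 4 genes passed the adjusted edgeR test (Ifi44, Parp14, Rsad2 and Slfn5; 0.159% of all genes). Leaving out replicate 3 of one genotype also leaves the genotype term to B1: without T166A replicate 3 the same 4 were called (0.134% of all genes), and without WT replicate 3 no gene of the 38 and none of all 13674 genes was.

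The 6 genes with a negative value in B2 were Stat2 (-0.03), Dtx3l (-0.18), Oas2 (-0.18), Mx1 (-0.09), Samd9l (-0.04) and Ifi44 (-0.06). In 31 genes the effect was smaller in B2 than in B1, and the median of the B2 minus B1 difference was -0.52 on the log2 scale, against -0.05 over all genes. The difference between batches was largest for Ifi44 at -2.08 (SE 0.38), Samd9l at -1.36 (SE 0.38) and Parp14 at -1.27 (SE 0.23). None of the 38 passed the adjusted edgeR test of that difference, which called 0.00761% of all genes and had 2 residual degrees of freedom. At an unadjusted p under 0.05 there were 9 of the 38, against 11.7% of all genes. Without WT replicate 2 the adjusted test called Ifi44, Parp14 and Samd9l lower in B2, against 0.461% of all genes, and without T166A replicate 1 it called Ifi44, against 0.11% of all genes.

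**Figure D2:**
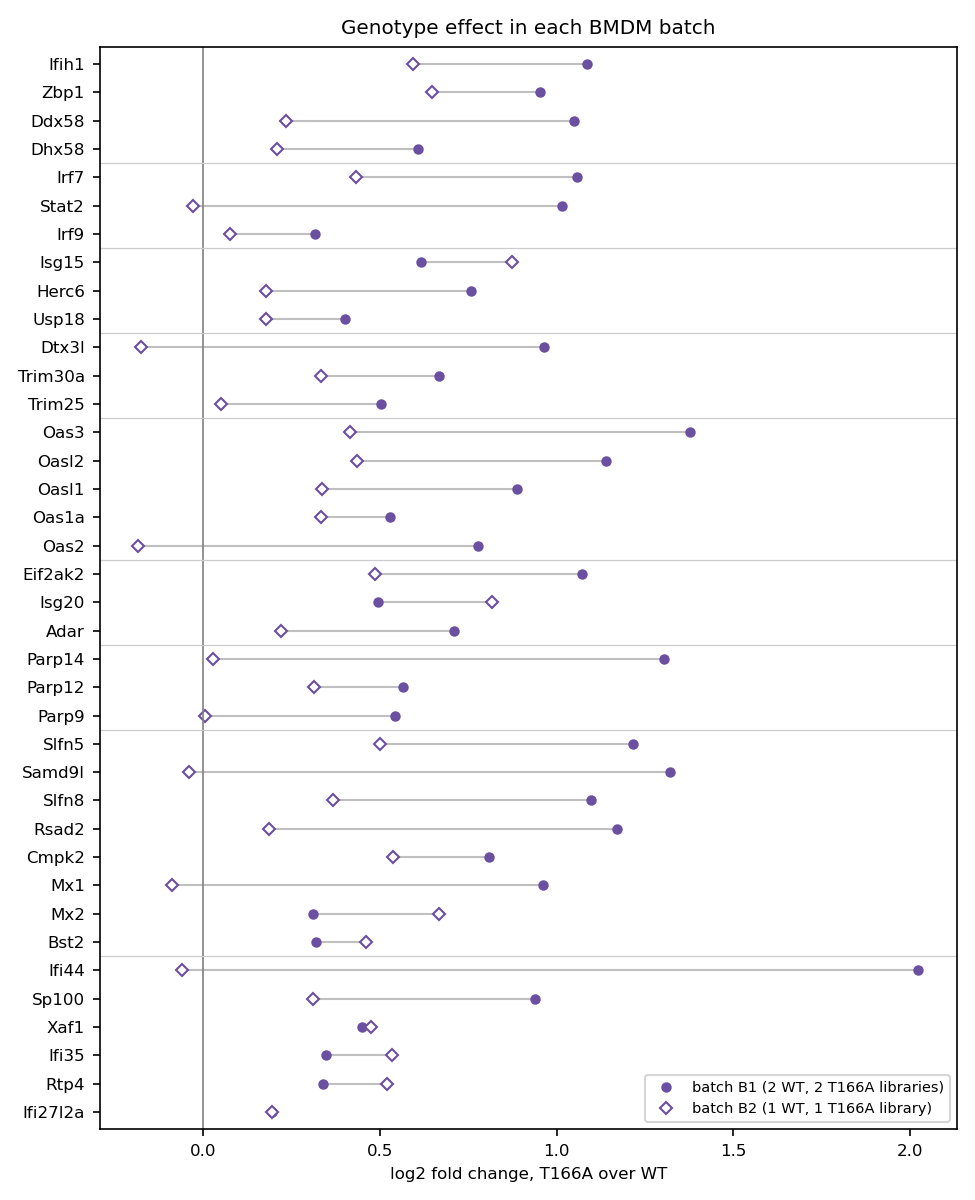
Log2 fold change of T166A over WT for each gene in BMDM batch B1 (filled circles, 2 libraries per genotype) and B2 (open diamonds, 1 library per genotype). The B1 values are all above 0, while 6 of the B2 values are below 0 and 31 lie to the left of their B1 value.

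The 7 genes with a larger effect in B2 were Isg15, Isg20, Bst2, Ifi35, Rtp4, Xaf1 and Mx2, and their transcripts were 756 to 2597 bases long with a median of 1362. Transcripts of the other 31 had a median of 3771 bases. Across the 38 genes the Spearman correlation of length with the log2 fold change was 0.54 in B1, -0.34 in B2 and -0.60 for the difference of the batches. The same correlations over 12971 genes with a length were 0.41, 0.098 and -0.21. These are descriptions over genes of the same 6 libraries. With each library's trend of level with length removed, all 38 stayed positive with a median of 0.56, and Isg15 and Zbp1 passed the adjusted edgeR test (0.129% of all genes).

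Marker lists of other cell types also had different sums between BMDM libraries, and their part in these values was not tested. The 7 fibroblast markers summed to 411 CPM in T166A replicate 3 and to at most 45.0 CPM in the other 5 libraries, with Lum under 0.5 CPM in all 6. The 8 plasmacytoid dendritic cell markers summed to 68.1 to 96.8 CPM in WT and 90.4 to 126 CPM in T166A. None of its 5 tested genes was called, and Klk1 was at 0 throughout. The 7 conventional dendritic cell markers summed to 78.0 to 215 CPM in WT and 37.6 to 165.6 CPM in T166A, lowest in replicate 3 of each. None of the 10 macrophage markers was called.

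In the skin wound fraction the same 38 genes had log2 fold changes on both sides of 0, and 5 passed the test. The median log2 fold change was 0.02, against 0.01 over all 15473 genes tested, and 22 of 38 were positive against 51.6% of all genes. Ddx58, Xaf1 and Parp9 were higher in T166A and Trim25 and Sp100 were lower by the adjusted edgeR test. These 3 and 2 of 38 compare with 12.7% of all genes called higher and 13.2% called lower. Every T166A library was above every WT library for Xaf1 and Parp9 (5.43% of all genes) and below for Trim25 (6.63% of all genes).

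Parp9 (chr16:35938470-35972621) ran from 77.3 to 98.7 CPM with a median of 92.3 in WT, and from 99.6 to 114 CPM with a median of 108 in T166A. The ranges did not overlap, though they nearly met, and the log2 fold change was 0.26 (SE 0.06) with an adjusted p of 0.00318 in edgeR. Xaf1 ran from 33.1 to 47.0 CPM with a median of 43.7 in WT, and from 47.6 to 53.6 CPM with a median of 51.0 in T166A, with a log2 fold change of 0.26 (SE 0.07) and an adjusted p of 0.00941 in edgeR. Ddx58 ran from 84.5 to 120.1 CPM with a median of 110.0 in WT, and from 117 to 129 CPM with a median of 124 in T166A, with a log2 fold change of 0.20 (SE 0.07) and an adjusted p of 0.0377 in edgeR. Its 2 groups overlapped, and without WT replicate 2 the log2 fold change was 0.14 and the call was lost (adjusted p of 0.067 in edgeR, in a range of 0.0053 to 0.318 over all alternatives). The call was also lost without WT replicate 4 or 5, and without T166A replicate 2, 3, 4 or 6.

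Trim25 (chr11:88999403-89020294) ran from 1061 to 1327 CPM with a median of 1174 in WT, and from 935 to 1004 CPM with a median of 978 in T166A. All T166A libraries were below all WT libraries, and the log2 fold change was -0.27 (SE 0.06) with an adjusted p of 0.000783 in edgeR. Sp100 ran from 103 to 138 CPM with a median of 121 in WT, and from 98.4 to 106 CPM with a median of 103 in T166A, with a log2 fold change of -0.24 (SE 0.06) and an adjusted p of 0.00322 in edgeR. The lowest Sp100 value in WT was in replicate 2. Xaf1, Parp9, Trim25 and Sp100 kept their calls without that library. Then 3 genes were called higher (Xaf1, Parp9 and Usp18; 13.4% of all genes) and 6 lower (Trim25, Sp100, Bst2, Irf7, Oasl1 and Ifi27l2a; 13.4% of all genes), and the median was -0.03. Without WT replicate 1, 6 genes were called higher, with Dhx58, Parp12 and Usp18 added, against 11.2% of all genes.

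**Figure D3:**
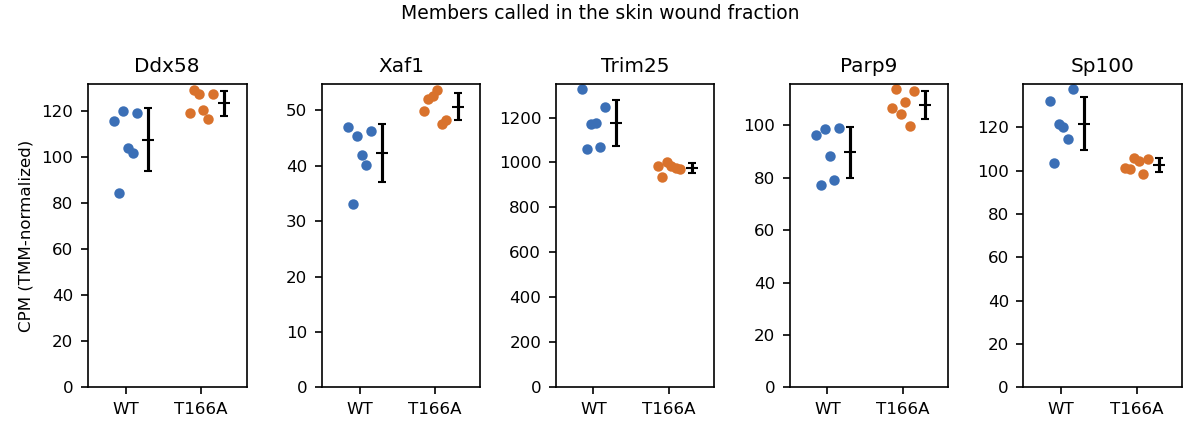
CPM of the 5 genes called in the skin fraction in each library, with mean and SD at the side (n = 6 per genotype). Xaf1 and Parp9 are separate with T166A above, Trim25 is separate with T166A below, and the T166A libraries of all 5 are closer together than the WT libraries.

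Per length, the highest WT levels in skin were those of Oasl1 at 892 RPKM, Rsad2 at 759.8 RPKM and Isg15 at 279 RPKM. Rsad2 ran from 2004 to 3400.1 CPM with a median of 2988 in WT, and from 2957 to 3614 CPM with a median of 3421 in T166A, with a log2 fold change of 0.23 (SE 0.11) and an adjusted p of 0.154 in edgeR. Oasl1, an inhibitor of Irf7 translation in mice, ran from 1577 to 2203 CPM with a median of 1962 in WT, and from 1432 to 2045 CPM with a median of 1775 in T166A, with a log2 fold change of -0.14 (SE 0.08). Both pairs of groups overlapped, and the WT minimum of each was replicate 2. Ifih1 ran from 733 to 986 CPM with a median of 849.9 in WT, and from 728 to 857 CPM with a median of 785 in T166A, and Parp14 ran from 642 to 890.4 CPM with a median of 772 in WT, and from 706 to 799 CPM with a median of 769.6 in T166A. Neither passed the test, with log2 fold changes of -0.11 (SE 0.07) and -0.01 (SE 0.07).

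None of the signalling factors passed the test in skin. Irf7 ran from 188 to 301 CPM with a median of 266 in WT, and from 201 to 251 CPM with a median of 239 in T166A. Irf9 had 91.3 ± 10.7 CPM in WT and 85.7 ± 3.24 CPM in T166A, and Stat2 had 167 ± 17.1 CPM in WT and 182 ± 5.69 CPM in T166A (mean ± SD, n = 6). Isg15 ran from 162 to 230.5 CPM with a median of 219.6 in WT, and from 195 to 233 CPM with a median of 214 in T166A, with overlap. Usp18 and Herc6 had log2 fold changes of 0.29 (SE 0.12) and 0.18 (SE 0.10). Adar ran from 123 to 162 CPM with a median of 144 in WT, and from 136 to 152 CPM with a median of 146 in T166A. Rtp4 ran from 81.3 to 129 CPM with a median of 115 in WT, and from 109 to 130.1 CPM with a median of 118 in T166A, and both pairs of groups overlapped. None of these passed the test. The remaining genes of the list had log2 fold changes between -0.22 for Bst2 and 0.29 for Mx1.

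The genes varied together from library to library in skin. After centring each genotype, all 703 pairs of the 38 had a positive correlation of log2 CPM over the 12 libraries, with a mean of 0.77. The mean over all pairs of tested genes was 7.5e-05. Scaling and centring hold that mean near 0, so it does not show how far other gene groups vary together. These correlations describe the samples. Depth and cell makeup differed between libraries, and their part in the correlations was not tested. The correlation was not computed without WT replicate 2. The median deviation of the 38 from the WT mean was -0.35 on the log2 scale in WT replicate 2 and 0.21 in WT replicate 1, which held the highest value of 16 genes. The largest T166A median was 0.11.

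Of the 2 skin groups, the WT libraries were the more widely spread for these genes. The median SD of log2 CPM over the 38 genes was 0.226 in WT and 0.0986 in T166A, and 37 of 38 had the larger SD in WT, against 46.5% of all genes. Without WT replicate 2 the WT median was 0.145 and 31 of 38 had the larger SD in WT, against 41.7% of all genes. No test of this difference was made. WT replicate 2 also had the lowest sum of 10 macrophage markers among WT libraries, 10636 CPM against 11921 to 13608 CPM, and the highest sum of 7 keratinocyte markers, 212 CPM against 111 to 186 CPM. The part of these in its low values was not tested.

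**Figure D4:**
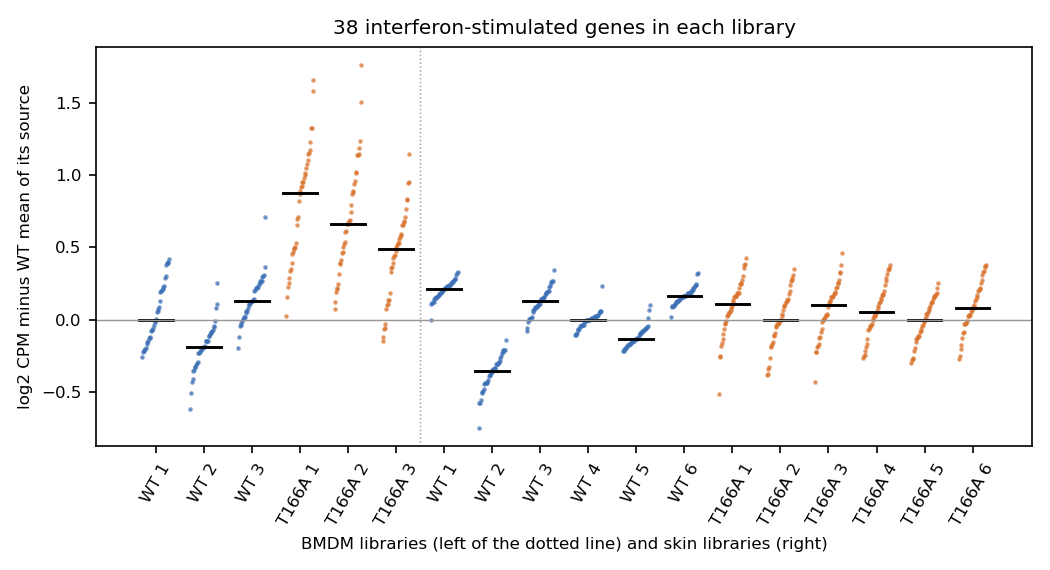
Log2 CPM of each of the 38 genes minus its WT mean in the same source (points), with the median as a bar, for every BMDM library (left) and skin library (right). The 3 BMDM T166A medians are 0.88, 0.66 and 0.49, and skin WT replicate 2 has the lowest median of the skin libraries, at -0.35.

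Cell type markers moved with genotype in skin, and their part in the gene values was not tested beyond the covariate given at the end. Of 10 macrophage markers 8 were lower in T166A, with summed levels of 10636 to 13608 CPM in WT and 9223 to 10537 CPM in T166A. Over all genes in skin, 12.7% were called higher and 13.2% lower. The 7 adipocyte markers summed to 4.78 to 12.2 CPM in WT and 25.1 to 51.9 CPM in T166A, and 6 of the 6 tested were higher. The 6 endothelial markers summed to 1046 to 1464 CPM in WT and 1335 to 1945 CPM in T166A, with 3 higher. The 8 plasmacytoid dendritic cell markers summed to 169 to 192 CPM in WT and 210 to 272 CPM in T166A, with 1 of 4 tested higher and 1 lower, and Klk1 at 0 in every library. With keratinocyte and fibroblast scores as covariates 9 of the 38 were called higher and 2 lower, against 14.9% and 15.3% of all genes. With the adipocyte score as a covariate, which does not overlap between genotypes, all 38 genes had a negative log2 fold change with a median of -0.39, and none was called higher. Ddx58 then had -0.28, Xaf1 -0.16 and Parp9 -0.014, none of them called, while Trim25 and Sp100 were still called lower.

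A test of the difference itself set the BMDM effect against the skin effect in one edgeR fit of all 18 libraries. The BMDM effect was the higher one in all 38 genes, with a median difference of 0.53 on the log2 scale against -0.03 over 16586 genes. It passed the adjusted test for 20 of the 38, against 8.13% of all genes, and for none in the other direction. The smallest adjusted p-values in edgeR were those of Ifih1 (difference 0.99, SE 0.14, adjusted p 0.000174), Sp100 (0.94, SE 0.14, adjusted p 0.000187) and Slfn5 (0.98, SE 0.16, adjusted p 0.000444). Differences near 0 were found for Usp18 (0.00, SE 0.19) and Parp9 (0.06, SE 0.15).

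By role, the called genes were 3 of 4 sensors, 4 of 5 genes of the Oas family, 4 of 8 antiviral effectors, 2 of 3 RNA enzymes, 2 of 3 ubiquitin ligases and partners, 1 each of the signalling factors, the PARPs and the Isg15 system, and 2 of 6 others. The joint fit shares one estimate of spread, while edgeR's common biological variation between replicates (as a coefficient) was 0.279 for BMDM and 0.133 for skin. When the separate fits were compared, 8 of the 38 were called (Bst2, Ifih1, Irf7, Isg15, Oasl1, Slfn5, Sp100 and Zbp1; 1.58% of all genes). Without skin WT replicate 2 the joint fit called 24 (7.95% of all genes), among them all 20.

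**Figure D5:**
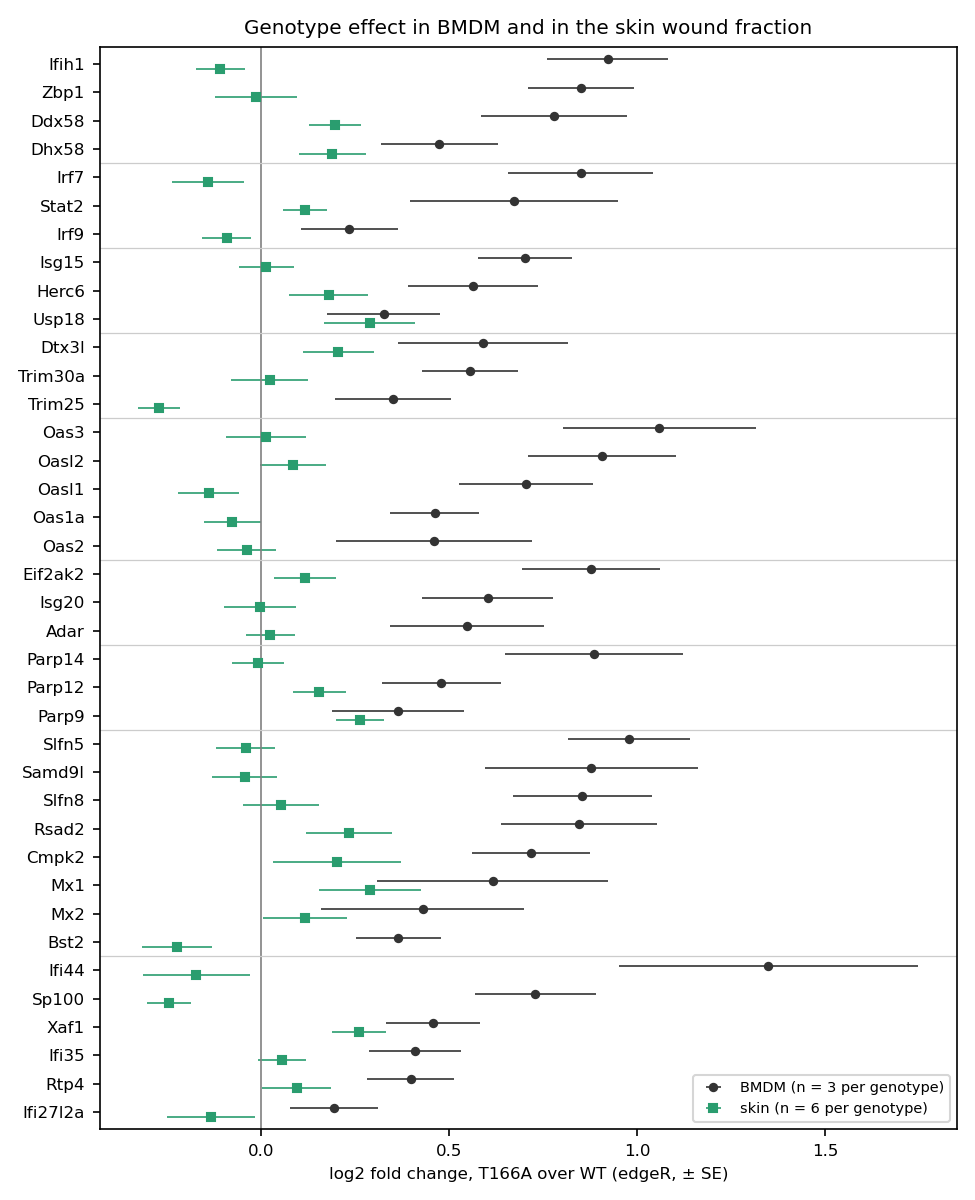
Log2 fold change of T166A over WT (points, edgeR) with its SE (lines) for each gene in BMDM (black, n = 3 per genotype) and in the skin wound fraction (green, n = 6 per genotype). All 38 BMDM values are above 0 with a median of 0.61, and the skin values lie on both sides of 0 with a median of 0.02.

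WT levels in the 2 sources are set side by side as a description, with CPM scaled within each table and no test made across them. In 29 of the 38 genes the WT mean was higher in skin and in 9 it was higher in BMDM. Rsad2 had a WT mean of 46.7 CPM in BMDM and 2874 CPM in skin, a ratio of 61.5. The ratio was 42.7 for Oasl1, 32.0 for Ifih1, 28.6 for Mx2 and 18.01 for Mx1. Isg15 had a ratio of 3.38. Ifi27l2a and Bst2 were at the other end, with ratios of 0.175 and 0.465. The Mx2 row stands for different transcripts in the 2 tables, as do those of Isg20, Ifi44 and Adar, so their ratios also carry that difference.

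Other genes of the pathway were read from a list of 40 ligands, receptors, kinases, factors, sensors and brakes. In BMDM 29 were tested and none was called, with a median log2 fold change of 0.04. At an unadjusted p under 0.05 edgeR put 4 of them higher, against 6.51% of all genes. Jak2, a kinase of the interferon-gamma receptor, had 21.2 ± 2.69 CPM in WT and 31.1 ± 2.55 CPM in T166A (mean ± SD, n = 3) without overlap, and a log2 fold change of 0.56 (SE 0.15) with an adjusted p of 0.219 in edgeR. DESeq2 and limma-voom each called 2 of the list higher in BMDM, against 1.89% and 1.13% of all genes.

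The receptor genes of type I interferon were not called in BMDM. Ifnar1 had 125 ± 15.7 CPM in WT and 129.6 ± 25.7 CPM in T166A and Ifnar2 had 192 ± 14.7 CPM in WT and 186 ± 16.8 CPM in T166A, with overlapping groups. Transcripts of the interferons themselves were scarce there: Ifnb1 had no count in any WT library and at most 0.138 CPM in a T166A library. Ifna1, Ifna2, Ifna4 and Ifna5 were at 0 in all 6 BMDM libraries. In skin Ifnb1 had 126 ± 19.8 CPM in WT and 131 ± 18.02 CPM in T166A (mean ± SD, n = 6), with a log2 fold change of 0.05 (SE 0.12).

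In skin 32 of the 40 were tested, with a median log2 fold change of -0.08, against 0.01 over all genes. By the adjusted edgeR test 1 was higher and 8 were lower in T166A, against 12.7% and 13.2% of all genes. Ifngr1, a chain of the interferon-gamma receptor, was higher, with 76.1 ± 2.29 CPM in WT and 91.9 ± 8.20 CPM in T166A, while Ifngr2, the other chain, was lower, with 132 ± 7.29 CPM in WT and 114 ± 7.12 CPM in T166A. Il10rb, a chain shared by the interferon-lambda and interleukin-10 receptors, fell by 0.41 on the log2 scale (SE 0.05) and Irf8, a factor of monocyte and dendritic cell identity, fell by 0.82 (SE 0.08), and these had the smallest p-values. The others that fell were Tlr9 (-0.46, SE 0.07), a sensor of bacterial DNA, Ticam1, the adaptor of Tlr3 (-0.32, SE 0.06), the brake Socs3 (-0.29, SE 0.08) and the kinases Ikbke (-0.21, SE 0.06) and Tbk1 (-0.15, SE 0.05). They fell in the same libraries in which macrophage markers were lower, and the part of that in these values was not tested.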

How the data were processed

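The authors deposited raw counts per RefSeq transcript row, 1 table for BMDM and 1 for skin. FastQC 0.12.1, cutadapt 4.4, HISAT2 2.2.1, featureCounts and the build mm10 are named in the submitters' processing notes. Neither the strand nor the multi-mapping setting is given in the sources used here. The labels' extraction text speaks of adipocytes grown in culture, while every sample is labelled as macrophages.

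Rows were matched to gene symbols, and 117 rows of each table stayed unmatched, with 0.514% of counts in BMDM and 0.187% in skin. For each gene the row with the highest summed CPM was kept. Genes passed edgeR's filterByExpr (minimum count 10, minimum total 15). The main test was the quasi-likelihood test of edgeR 4.0.16 in R 4.3.3, with TMM scaling, batch as a term in BMDM and Benjamini-Hochberg adjustment over all genes (threshold 0.05). SE is the size of the log2 fold change divided by the root of F. The script was tested on simulated data. Alternatives used DESeq2 1.42.0, limma 3.58.1, other filters, scalings and covariates, and each library left out in turn in the fits by source.

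The 38 genes, like the pathway list and the marker lists, were chosen with earlier results of these data known. In BMDM, values per library are given for the genes with the smallest p (down to Ddx58) and, in each role, the gene with the highest CPM, and in skin the range and median for the called genes and those of highest CPM. Library values of Stat2, Dtx3l, Samd9l and Ifi44 in BMDM were added after their values were seen. From the pathway list the called genes and the 2 with the smallest p in each source are named, with the receptors and ligands added after their values were seen. One gene that this rule names is not reported here. Same-numbered BMDM libraries of the 2 genotypes deviated together weakly (r of 0.200, 0.115 and 0.185 across genes). Pairs with different numbers had r of -0.195 to -0.017. Each genotype was centred over its 3 libraries, which ties these values together, and the replicate 3 pair shares batch B2. The labels state no pairing, and whether the libraries are paired was not tested.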

Additional observations from a re-analysis of the deposited data

Results flagged for a closer look

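Among the 12 skin libraries, T166A replicate 5 stood below the other 5 T166A libraries for Eif2ak2, where the gap to the nearest library was 0.740 of the group's whole range, and for Samd9l, where it was 0.633. These were 2 of 78 groups of values examined, and chance marks about 1 in 20.

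The genotype effect differed between BMDM and skin by the interaction term of the joint edgeR fit for 20 genes, each higher in BMDM. On the log2 scale the sensors differed by 0.99 for Ifih1, 0.83 for Zbp1 and 0.54 for Ddx58, and the signalling factor Irf7 by 0.95. In the Oas family the difference was 1.01 for Oas3, 0.81 for Oasl1, 0.78 for Oasl2 and 0.50 for Oas1a. The effectors gave 0.98 for Slfn5, 0.88 for Samd9l, 0.76 for Slfn8 and 0.55 for Bst2. Eif2ak2 differed by 0.72, Isg15 by 0.65, Isg20 by 0.57 and Parp14 by 0.85. The ubiquitin ligases Trim25 and Trim30a differed by 0.58 and 0.49, Sp100 by 0.94 and Ifi44 by 1.47. The rows of Ifi44 and Isg20 stand for different transcripts in BMDM and skin, so their differences may also carry that. With transcripts summed per gene both were still called, in a fit that called 7.65% of all genes higher in BMDM. Source, culture, batch and cell makeup differ together between BMDM and skin, so their parts in this difference cannot be told apart.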

How the results depend on the processing

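The direction of each of the 38 genes in BMDM held under every alternative run, while the number called higher in edgeR was 0 and became 8 without a filter on low counts, 16 in limma-voom, 22 in DESeq2, 4 in batch B1 alone, 2 with the length trend removed and 0 to 4 with each library left out, highest without T166A replicate 3. The replicate block changed no call in BMDM. In skin, same-numbered libraries did not deviate together (r of -0.045 to 0.090), and with the replicate block 8 genes were called higher (14.5% of all genes) and 3 lower (14.9%). The count higher was 9 with keratinocyte and fibroblast scores (14.9% of all genes) and 0 with the adipocyte score (2.29%). With each library left out it was 2 to 6, against 10.9% to 13.4% of all genes. The count lower was 2 to 6 with each library left out, against 11.3% to 13.4% of all genes. It was 7 with the adipocyte score (3.96% of all genes), and the skin median became -0.39 with that score. With that covariate none of the 22 genes that were positive stayed positive. Of those followed gene by gene it reversed Ddx58 (-0.28), Dhx58 (-0.40), Usp18 (-0.34), Xaf1 (-0.16), Parp9 (-0.014), Parp12 (-0.26) and Dtx3l (-0.12). The adipocyte score does not overlap between genotypes, so this fit cannot tell its part from that of genotype. The cause was not tested. The interaction count was 8 from the separate fits (1.58% of all genes). It was 15 to 24 with each BMDM library or skin WT replicate 2 left out, against 6.7% to 10.3% of all genes. The other skin libraries were not left out of the joint fit. The batch difference called 0 to 3 lower with each B1 library left out. In the pathway list limma-voom and DESeq2 called 2 and 2 higher in BMDM (1.13% and 1.89% of all genes). In skin they called 4 and 2 higher (14.6% and 13.6% of all genes). The replicate block gave 3 (14.5%), keratinocyte and fibroblast scores 4 (14.9%) and the adipocyte score 0 (2.29%). With each library left out 1 to 3 were higher, against 10.9% to 13.4% of all genes. The count lower in skin was 7 to 9 with each library left out, against 11.3% to 13.4% of all genes. Over the other alternatives it was 6 to 11, against 3.96% to 15.5% of all genes. A longer form of the motif was found in 32.1% of the 28 genes, against 0.944% of all genes in the promoter table. Leaving skin WT replicate 2 out of the joint fit was chosen after seeing the data. The BMDM test had 3 residual degrees of freedom, and how far depth limits it was not tested.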

Other observations

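Other marker lists gave these values. In BMDM the 9 neutrophil markers summed to 57.8 to 95.8 CPM in WT and 29.1 to 61.3 CPM in T166A, and none of the 8 tested was called. The 5 mast cell markers summed to 59.4 to 72.7 CPM in skin WT and 76.0 to 109 CPM in skin T166A, with 1 called higher and 3 lower. The 6 monocyte markers summed to 953 to 1138 CPM in skin WT and 832 to 1005 CPM in skin T166A, with 2 called lower. The 9 neutrophil markers summed to 32.8 to 107 CPM in skin WT and 30.7 to 52.8 CPM in skin T166A, with 2 of 5 tested called lower. The 7 conventional dendritic cell markers summed to 117 to 147 CPM in skin WT and 106 to 126 CPM in skin T166A, with 2 called higher and 3 lower. In skin 12.7% of all genes were called higher and 13.2% lower.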
